A study of Mus musculus with 80 samples.

Results

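Chemokines are small secreted proteins that attract leukocytes along a concentration gradient, and they are named by the spacing of their first cysteines as CC, CXC, C or CX3C ligands. They signal through receptors coupled to Gi proteins (Ccr, Cxcr, Xcr1 and Cx3cr1), while the atypical receptors (Ackr) bind chemokines without G protein signalling and remove or present them. In adipose tissue they are known for recruiting monocytes, and in lymph nodes for placing B cells and T cells in their compartments. The genes described here are those whose mouse symbol is Ccl, Cxcl, Ccr, Cxcr or Ackr followed by a number, together with Cx3cl1, Cx3cr1, Xcl1 and Xcr1. The rule used symbols alone and found 58 genes among the 32764 genes in the count files.

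RNA sequencing had been performed in liver, muscle, brown fat (BAT, brown adipose tissue) and the white fat of the groin (iWAT, inguinal white adipose tissue) of male mice on a C57BL/6J background, with 5 libraries for each tissue and genotype and 80 libraries in all. The genotypes were wildtype (WT), FGF21 KO (loss of the hormone Fgf21), UCP1 KO (loss of the mitochondrial uncoupling protein Ucp1 of brown adipocytes) and the double knockout (dKO), which the sample labels spell with FGF12 and the study with FGF21. The mice were homozygous and the losses constitutive, so they were present in all cells and from birth. All 4 genotypes were bred at 30 °C, and at 10 to 12 weeks of age they were moved to room temperature and fed a high-fat diet for 3 weeks. The study treats the 5 libraries of a group as separate mice, while the labels say only that they are separate samples, so p-values measure the spread between these samples.

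Library totals ran from 28691377 to 50380696 counts. In BAT, Ucp1 was counted at 3205 to 7554 CPM (counts of the gene per 1000000 counts, the library size scaled by TMM factors) in WT and 5245 to 8072 CPM in FGF21 KO, and still at 529.7 to 1238 CPM in UCP1 KO and 1046 to 1883 CPM in dKO. Fgf21 in BAT was at most 0.0439 CPM in FGF21 KO and 0.0707 CPM in dKO, but at 9.47 to 35.2 CPM in UCP1 KO against 0.228 to 0.289 CPM in WT. In iWAT the gene-level Ucp1 count did not follow the label, with 102 to 734 CPM in the libraries labelled UCP1 KO and 2.64 to 16.7 CPM in WT, and in liver and muscle Ucp1 was near 0 in several libraries of all genotypes, so the loss was checked by counts in BAT alone. Tissue identity held in WT, since 4 hepatocyte markers summed to 77755 to 85363 CPM in liver, 10 skeletal muscle markers to 143392 to 173339 CPM in muscle and 4 adipocyte markers to 8441 to 18146 CPM in iWAT. In 4 of the 20 iWAT libraries, however, the muscle markers summed to more than 1000 CPM. They were at 1126 and 12189 CPM in WT replicates 4 and 5, 24742 CPM in UCP1 KO replicate 1 and 4928 CPM in FGF21 KO replicate 5, against 28.1 to 899 CPM in the other 16.

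Many chemokine genes lie side by side in the genome. By GENCODE positions on GRCm38, 38 of the 58 genes fell into 10 groups of neighbours no more than 1 Mb apart, among them the CC ligands of chromosome 11, the CXC ligands of chromosome 5 and the receptors of chromosome 9. Promoter sequence is shown for Cxcl10, which had the largest fold change in BAT, and for the neighbouring neutrophil-attracting ligands Cxcl1 and Cxcl2, because these 3 genes hold consensus letters of inducible transcription factors in the 250 bases before their annotated start. Sequences are from RefSeq, build GRCm38.p6, 5′ to 3′ on the strand of the gene, with motif matches in capitals. Cxcl10 is read from the minus strand at chr5:92348890-92349139, Cxcl1 from the plus strand at chr5:90890995-90891244 and Cxcl2 from the plus strand at chr5:90903649-90903898.
Cxcl10: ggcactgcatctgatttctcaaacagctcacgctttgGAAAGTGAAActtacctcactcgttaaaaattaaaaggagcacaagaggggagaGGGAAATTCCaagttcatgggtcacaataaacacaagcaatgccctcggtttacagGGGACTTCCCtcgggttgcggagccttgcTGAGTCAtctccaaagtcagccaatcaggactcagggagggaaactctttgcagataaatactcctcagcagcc
Cxcl1: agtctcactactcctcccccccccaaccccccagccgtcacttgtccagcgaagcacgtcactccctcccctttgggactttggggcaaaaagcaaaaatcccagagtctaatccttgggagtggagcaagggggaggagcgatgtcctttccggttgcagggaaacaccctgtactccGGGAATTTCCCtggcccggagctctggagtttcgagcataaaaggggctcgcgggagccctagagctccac
Cxcl2: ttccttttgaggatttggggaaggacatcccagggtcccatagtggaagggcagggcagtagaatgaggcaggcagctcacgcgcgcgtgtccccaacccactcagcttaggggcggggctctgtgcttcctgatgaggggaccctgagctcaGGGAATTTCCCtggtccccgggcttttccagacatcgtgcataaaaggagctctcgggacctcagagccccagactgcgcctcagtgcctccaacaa
The capitals in Cxcl10 mark, from left to right, 1 match to the core of the interferon-stimulated response element (GAAANNGAAA, searched on both strands), 2 matches to the NF-kappaB consensus and 1 match to AP-1 (TGANTCA), whose first bases lay 213, 159, 103 and 74 bases before the start. In Cxcl1 and Cxcl2 the capitals mark 1 stretch that gives 2 overlapping NF-kappaB matches, at 71 and 70 bases before the start in Cxcl1 and at 97 and 96 bases in Cxcl2. Windows were available for 43 of the 58 genes, 4 of them with more than 1 window. In the 250 bases before the start, the NF-kappaB consensus was found in 9 of 50 chemokine windows (18%) and in 3.9% of all 32851 RefSeq windows. The interferon-stimulated core was found in 3 of the 50 (6%) and in 2.98% of all, and AP-1 in 6 (12%) and in 6.75% of all. Of 15 genes with a window that were higher in UCP1 KO BAT (described below), 4 held the NF-kappaB consensus, 1 the interferon-stimulated core and 2 AP-1. The 3 promoters shown are therefore not typical of these genes. All such matches describe letters, not bound sites. Genes without a matched window included Ccl2, Ccl4, Ccl5, Ccl7, Ccl11, Ccl24, Ccl26, Ccr7, Ccr10, Cxcl5, Cxcl11, Cxcl16, Cxcl17 and Cxcr5.

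The main question was what loss of UCP1 did to chemokine genes in BAT. In UCP1 KO BAT, 21 of the 39 chemokine genes that could be tested were higher than in WT and 2 were lower, at an adjusted p under 0.01 in edgeR's quasi-likelihood test, whose adjustment covered all genes tested in the tissue. Of all 15729 genes tested, 13.8% were called higher and 11.4% lower. The median log2 fold change of the 39 was 1.27, against 0.0097 over all genes. The genes that rose included 8 of 10 tested inflammatory CC ligands, both tested neutrophil-attracting CXC ligands, both tested interferon-inducible CXC ligands and 4 of 8 tested receptors of myeloid and effector cells, while Cxcl12, the homeostatic ligand with the highest level per kilobase of any CXC ligand in WT BAT, was at 89.5 to 113 CPM against 94.6 to 106 CPM in WT (log2 fold change -0.03 (SE 0.10, adjusted p = 0.848)). In a bulk sample, fewer cells of a type and less RNA per cell cannot be told apart, and the same holds for more. With only the 2 genotypes in the fit, 16 chemokine genes were called, and Ccl12, Ccl22, Ccr1, Cx3cl1, Cxcl2, Cxcl16 and Xcl1 were not, with adjusted p-values of 0.0103 to 0.0393. The share of all genes called in that fit was not computed, so the lower count has no background to be set against. In 11 genes all 5 UCP1 KO libraries lay above all 5 WT libraries, which 11.8% of all genes tested did. The other 19 of the 58 genes were too low to test in BAT, with at most 20 counts in any library, among them Ccl3, Ccl17, Ccl19, Ccl20, Ccr4 and Ccr8.

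Among the inflammatory CC ligands, which attract monocytes and other leukocytes, 8 of the 10 tested rose and none fell, and the median log2 fold change of the 10 was 2.63. Ccl2, the ligand that draws monocytes through Ccr2, was at 0.547, 0.597, 0.315, 0.39 and 0.608 CPM in the 5 WT libraries and at 1.05, 3.3, 1.71, 6.09 and 9.42 CPM in the 5 UCP1 KO libraries. Every UCP1 KO library lay above every WT library, and the log2 fold change was 3.12 (SE 0.51, adjusted p = 0.000126). Its neighbour Ccl7, which binds the same receptor, was at 0.304, 0.527, 0.21, 0.358 and 0.868 CPM in WT and 0.617, 3.37, 1.57, 5.82 and 6.93 CPM in UCP1 KO. The lowest UCP1 KO value of Ccl7 fell within the WT range, and the log2 fold change was 3.00 (SE 0.55, adjusted p = 0.000386). Ccl8, another monocyte attractant of this group, was at 0.791, 0.491, 0.35, 0.813 and 0.926 CPM in WT and 2.55, 8.7, 3.3, 7.68 and 6.59 CPM in UCP1 KO, without overlap and with a log2 fold change of 3.08 (SE 0.54, adjusted p = 0.000251). Ccl12 rose by 2.26 (SE 0.64, adjusted p = 0.00876) on the log2 scale, from 0.211 to 0.695 CPM to 0.349 to 4.47 CPM, and the call was lost when any 1 of 13 of the 20 libraries was left out, with an adjusted p of at most 0.037 and a log2 fold change of at least 1.68. These 4 genes lie together on chromosome 11 between positions 82035571 and 82305690, where 5 genes were tested. The fifth, Ccl11, the eosinophil attractant eotaxin, was not called (log2 fold change -0.42 (SE 0.18, adjusted p = 0.0696)).

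Another row of CC ligands lies on chromosome 11 between positions 83525778 and 83664683, and all 4 tested genes there rose. Ccl5, a ligand made by T cells and macrophages, was at 0.547, 0.281, 0.594, 0.325 and 0.753 CPM in WT and 1.98, 11.1, 2.81, 4.63 and 5.21 CPM in UCP1 KO. The groups did not overlap, and the log2 fold change was 3.35 (SE 0.66, adjusted p = 0.000643). Ccl4, a ligand made by activated macrophages and lymphocytes, was barely counted in WT, at 0.213, 0.0351, 0.035, 0 and 0.0579 CPM or 0 to 7 counts a library, and was at 0.0536, 1.3, 0.428, 1.17 and 1.48 CPM in UCP1 KO. Its lowest UCP1 KO library overlapped WT, and with WT counts this low the fitted log2 fold change of 3.60 (SE 0.77, adjusted p = 0.00127) depends on the prior count of the fit. Ccl6 and Ccl9, myeloid ligands that bind Ccr1, started from far higher levels. Ccl6 went from 7.17 to 13.5 CPM in WT to 12.3 to 39.6 CPM in UCP1 KO (log2 fold change 1.23 (SE 0.31, adjusted p = 0.00452)) and Ccl9 from 5.45 to 8.42 CPM to 8.21 to 30.8 CPM (log2 fold change 1.38 (SE 0.28, adjusted p = 0.000932)). The call of Ccl6 was lost without WT replicate 2 or 3 or UCP1 KO replicate 2, and with the skeletal muscle score in the model (1.06, adjusted p = 0.0188). Ccl9 kept its call without any 1 library.

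**Figure D1:**
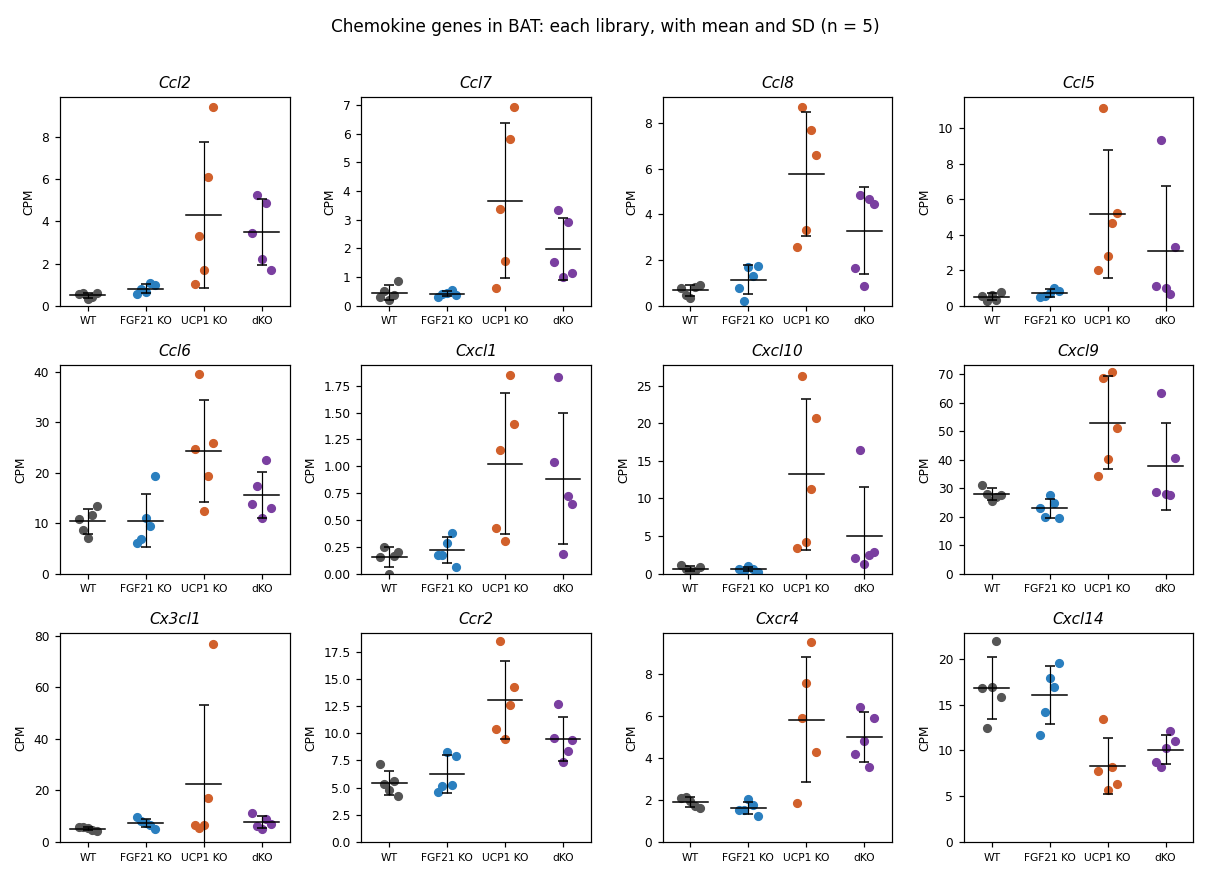
Levels of 12 chemokine genes in BAT, in CPM on linear axes that differ between panels; each point is 1 library, grouped by genotype, with the group mean and standard deviation, and bars that would pass below 0 end at the axis. In Cxcl10, Ccl2 and Ccl8 all 5 UCP1 KO libraries sit above all 5 WT libraries, while in Cx3cl1 a single UCP1 KO library at 76.7 CPM stands far above the rest.

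Both tested interferon-inducible CXC ligands, which attract activated T cells through Cxcr3, rose. Cxcl10 was at 1.16, 0.597, 0.419, 0.358 and 0.955 CPM in WT and 3.46, 26.3, 4.26, 11.2 and 20.7 CPM in UCP1 KO. The highest WT library stayed below the lowest UCP1 KO library, and the log2 fold change of 4.22 (SE 0.74, adjusted p = 0.00023) was the largest of the 39 genes tested. Cxcl9, its neighbour on chromosome 5, had a WT level many times that of Cxcl10 and moved less. It was at 31.2, 27.9, 25.5, 26.8 and 27.6 CPM in WT and 34.4, 68.5, 40.3, 70.6 and 51.1 CPM in UCP1 KO, without overlap, with a log2 fold change of 0.93 (SE 0.22, adjusted p = 0.00279). Their receptor Cxcr3 was at 0.246 to 0.55 CPM in WT and 0.563 to 2.1 CPM in UCP1 KO without overlap, but missed the threshold (log2 fold change 1.46 (SE 0.49, adjusted p = 0.0234)). The neutrophil attractants Cxcl1 and Cxcl2, whose promoters are shown above, were low. Cxcl1 was at 0.152, 0.246, 0, 0.163 and 0.203 CPM in WT (0 to 7 counts) and 0.429, 1.15, 0.305, 1.85 and 1.4 CPM in UCP1 KO, and Cxcl2 at 0.0325 to 0.14 CPM in WT (1 to 4 counts) and 0.143 to 0.85 CPM in UCP1 KO. Neither pair of groups overlapped, and the log2 fold changes were 2.72 (SE 0.65, adjusted p = 0.00294) for Cxcl1 and 2.43 (SE 0.64, adjusted p = 0.0059) for Cxcl2. The Cxcl2 call was lost without any 1 of 7 libraries, with an adjusted p of at most 0.0197. Cxcr2, the receptor of both ligands, was not called (log2 fold change 0.22 (SE 0.49, adjusted p = 0.745)). Of 5 neutrophil markers 3 could be tested, and Csf3r rose by 1.37 (SE 0.25, adjusted p = 0.000403) on the log2 scale; the 5 summed to 2.16 to 3.16 CPM in WT and 3.93 to 9.03 CPM in UCP1 KO, and their part in the result was not tested.

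The remaining ligands moved in both directions. Cx3cl1, the membrane-bound ligand fractalkine, was at 5.72, 5.72, 5.42, 4.59 and 4.17 CPM in WT and 6.68, 5.22, 6.68, 16.9 and 76.7 CPM in UCP1 KO. Most of its log2 fold change of 2.13 (SE 0.56, adjusted p = 0.00596) came from UCP1 KO replicate 5, without which it was 0.80 and not called; leaving out any 1 of the 5 WT libraries also ended the call. Its receptor Cx3cr1 did not pass the test (log2 fold change -0.34 (SE 0.33, adjusted p = 0.422)). Ccl22, a dendritic cell ligand of Ccr4 and a neighbour of Cx3cl1 at 11.5 Mb from Ucp1 on chromosome 8, was called at 1.94 (SE 0.48, adjusted p = 0.00396), and lost the call without WT replicate 1, 3 or 4 or UCP1 KO replicate 5, the lowest value being 1.23. Xcl1, the C ligand of lymphocytes, was at 1 to 7 counts in WT and rose by 1.82 (SE 0.45, adjusted p = 0.00345), and Cxcl16, the transmembrane ligand of Cxcr6, by 0.96 (SE 0.23, adjusted p = 0.00315); leaving out 1 library ended the call of Xcl1 in 4 cases and of Cxcl16 in 1, UCP1 KO replicate 5. Cxcl14, an epithelial and adipose CXC ligand, was among the 2 that fell, from 16.8, 12.5, 16.9, 21.9 and 15.8 CPM in WT to 7.7, 13.4, 5.64, 8.21 and 6.28 CPM in UCP1 KO. A single UCP1 KO library lay within the WT range, and the log2 fold change was -1.03 (SE 0.21, adjusted p = 0.000739). Ccl27a, known as a skin T cell ligand, was at 13.8, 10.5, 10.5, 9.66 and 9.58 CPM in WT and 7.54, 6.52, 7.27, 8.73 and 6.48 CPM in UCP1 KO. Every UCP1 KO library was below every WT library (log2 fold change -0.56 (SE 0.12, adjusted p = 0.001)), but Ccl27a has a near-identical copy, Ccl27b, and how reads were divided between them is uncertain.

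Of the 12 receptors of myeloid and effector cells, 8 could be tested and 4 rose. Ccr2, the receptor that marks inflammatory monocytes, was at 7.21, 5.3, 4.75, 5.56 and 4.23 CPM in WT and 10.4, 18.5, 9.45, 12.6 and 14.2 CPM in UCP1 KO. The groups did not overlap and the log2 fold change was 1.27 (SE 0.21, adjusted p = 0.000149). Ccr1, receptor of Ccl6 and Ccl9, overlapped WT in 1 library and rose by 1.78 (SE 0.39, adjusted p = 0.00162) on the log2 scale. These genes lie together on chromosome 9 with Xcr1, the receptor of cross-presenting dendritic cells, which rose by 1.99 (SE 0.50, adjusted p = 0.00402) and lost its call without WT replicate 2 or 5 or UCP1 KO replicate 5. Of the 4 tested receptors of lymphoid homing, Cxcr4, which binds Cxcl12, was called. It was at 2.1, 2.14, 1.92, 1.69 and 1.59 CPM in WT and 1.82, 5.9, 7.58, 9.51 and 4.3 CPM in UCP1 KO. Apart from 1 UCP1 KO library within the WT range all lay above it, and the log2 fold change was 1.63 (SE 0.30, adjusted p = 0.000395). Ccr7, which leads dendritic cells and T cells to lymph nodes, did not pass (log2 fold change 1.71 (SE 0.58, adjusted p = 0.0254)), nor did Cxcr6 (1.19 (SE 0.37, adjusted p = 0.0168)). No atypical receptor was called among 3 tested, with log2 fold changes of 0.59 (SE 0.28, adjusted p = 0.103) for Ackr1 and -0.53 (SE 0.22, adjusted p = 0.0621) for Ackr3, the scavenger of Cxcl12.

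Genes downstream of the receptors were counted from a list of 35 signalling genes, of which 34 were tested in BAT. In UCP1 KO against WT, 16 rose and 2 fell, where 13.8% of all genes rose and 11.4% fell, with a median log2 fold change of 0.50 against 0.0097 over all genes. Rgs1, which shortens chemokine receptor signalling in leukocytes, rose by 3.16 (SE 0.53, adjusted p = 0.000158). The leukocyte genes Dock2, Rac2 and Vav1, which drive actin movement, rose by 1.56, 1.54 and 1.65. The members that fell were Arrb1, a beta-arrestin (-0.71 (SE 0.12, adjusted p = 0.00023)), and Plcb3, a phospholipase C (-0.35 (SE 0.07, adjusted p = 0.000402)). Of 8 proteins that cleave or retain chemokines, only the macrophage metalloelastase Mmp12 was called (2.48 (SE 0.59, adjusted p = 0.00272)), a share near that of all genes.

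Markers of other cells moved with these genes. Among 8 macrophage markers, 6 rose in UCP1 KO BAT, with a median log2 fold change of 1.10 over the 8 and, for the lysosomal marker Cd68, 1.81 (SE 0.28, adjusted p = 9.32e-05). The 8 markers summed to 141 to 170.0 CPM in WT, 134 to 227 CPM in FGF21 KO, 179.8 to 482 CPM in UCP1 KO and 181 to 294 CPM in dKO. With the mean log2 level of these markers as a covariate, an alternative chosen after seeing the data, UCP1 KO against WT gave 0 chemokine genes called higher (4.13% of all genes were) and 2 called lower (3.03%). The lower genes were Ccl11 and Cxcl14, of which Cxcl14 also passed without the covariate; it was at -1.53 (SE 0.24, adjusted p = 0.000406), while the log2 fold change of Ccl2 was 1.70 (adjusted p = 0.038), that of Cxcr4 1.51 (adjusted p = 0.0139) and that of Cxcl10 1.80 (adjusted p = 0.0413). The level rose with the macrophage score itself, at equal genotype, in 5 chemokine genes (1.46% of all genes), among them Ccl9, Ccr1, Ccr2 and Cxcl10, and fell with it in 0 (0.0191%). The score itself differed between genotypes, so genotype and macrophage markers cannot be told apart fully in this fit. Of 10 skeletal muscle markers 5 also rose, and they summed to 72.6 to 10499 CPM in UCP1 KO against 30.4 to 141 CPM in WT. Without the 4 BAT libraries above 1000 CPM of these markers (1 UCP1 KO and 3 dKO), 19 chemokine genes were called higher (13.7% of all genes were) and 3 lower (11.3%). However, Ccl6 (0.98, adjusted p = 0.0166) and Ccl12 (2.30, adjusted p = 0.011) were no longer called. Adipocyte markers moved the other way. Of 4 such markers 2 fell, the hormone gene Adipoq by 1.15 (SE 0.17, adjusted p = 5.97e-05) on the log2 scale and the lipase gene Lipe by 0.43 (SE 0.12, adjusted p = 0.00993), with a median of -0.34 over the 4. In WT their mean log2 level lay between 10.63 and 10.85, and UCP1 KO libraries, at 9.66 to 10.57, did not overlap it. Likewise dKO, at 10.10 to 10.59, lay below FGF21 KO, at 10.64 to 10.75. In dKO against FGF21 KO 1 of the 4 fell, Adipoq by 1.01 (SE 0.17, adjusted p = 0.00038). Of 4 endothelial markers 1 was lower in each comparison, with medians of -0.20 and -0.11. The part of adipocyte, endothelial and muscle markers in the chemokine results was not tested beyond the values given here. The 8 lymphocyte markers, none of them called, summed to 3.61 to 4.81 CPM in WT and 4.4 to 9.25 CPM in UCP1 KO.

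The same loss was measured again on the FGF21 KO background, by setting other libraries against each other than in the first comparison. Both comparisons came from 1 fit of all 20 BAT libraries and shared its estimate of the spread, so they were not independent tests. For example, leaving out WT replicate 1 ended the call of Xcr1 in dKO against FGF21 KO. In dKO against FGF21 KO, 5 chemokine genes were higher (6.74% of all genes were) and 0 were lower (6.8%). These were Cxcl10, Ccl2, Ccl7, Cxcr4 and Xcr1, all of which were also called in UCP1 KO against WT, so the shared genes made up 21.7% of the 23 calls of the first comparison and 100% of the 5 calls of the second. In 7 genes every dKO library lay above every FGF21 KO library, as in 8.84% of all genes. Ccl2 was at 0.549, 0.799, 0.645, 1.07 and 1 CPM in FGF21 KO and 3.46, 5.23, 2.22, 4.89 and 1.67 CPM in dKO. The dKO libraries were all higher, and the log2 fold change was 2.11 (SE 0.48, adjusted p = 0.00362). The call was lost without dKO replicate 2 or FGF21 KO replicate 1 or 3. Cxcr4 was at 1.52, 1.51, 2.03, 1.73 and 1.22 CPM in FGF21 KO and 4.17, 6.41, 4.81, 3.55 and 5.91 CPM in dKO. These groups were likewise apart (log2 fold change 1.63 (SE 0.30, adjusted p = 0.00079)), and this call was kept without any 1 library. Cxcl10 was at 0.637, 0.414, 0.968, 0.657 and 0.281 CPM in FGF21 KO and 2.05, 16.5, 1.34, 2.47 and 2.86 CPM in dKO, without overlap. Its log2 fold change of 3.08 (SE 0.72, adjusted p = 0.00443) leaned on dKO replicate 2, without which it was 1.88 and not called. The call was also lost without FGF21 KO replicate 1, 2, 4 or 5. Ccl7 (2.23 (SE 0.55, adjusted p = 0.00609)) lost its call without any 1 of 7 libraries and Xcr1 (1.98 (SE 0.52, adjusted p = 0.00891)) without any 1 of 14. The count of 5 fell to 1 without dKO replicate 2 or FGF21 KO replicate 1, to 2 without FGF21 KO replicate 2, 4 or 5 and to 3 without FGF21 KO replicate 3. Without the 4 libraries high in skeletal muscle markers, 9 were called higher (6.71% of all genes) and 0 lower (5.43%). In that setting Ccl2 (2.09, adjusted p = 0.0215) and Ccl7 (2.41, adjusted p = 0.0191) were not among those called. With the macrophage score in the model, Ccl2 and Cxcr4 were called higher (2 genes, against 5.77% of all genes) and Ccl11 and Cxcl14 lower (2 genes, against 5.51%).

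**Figure D2:**
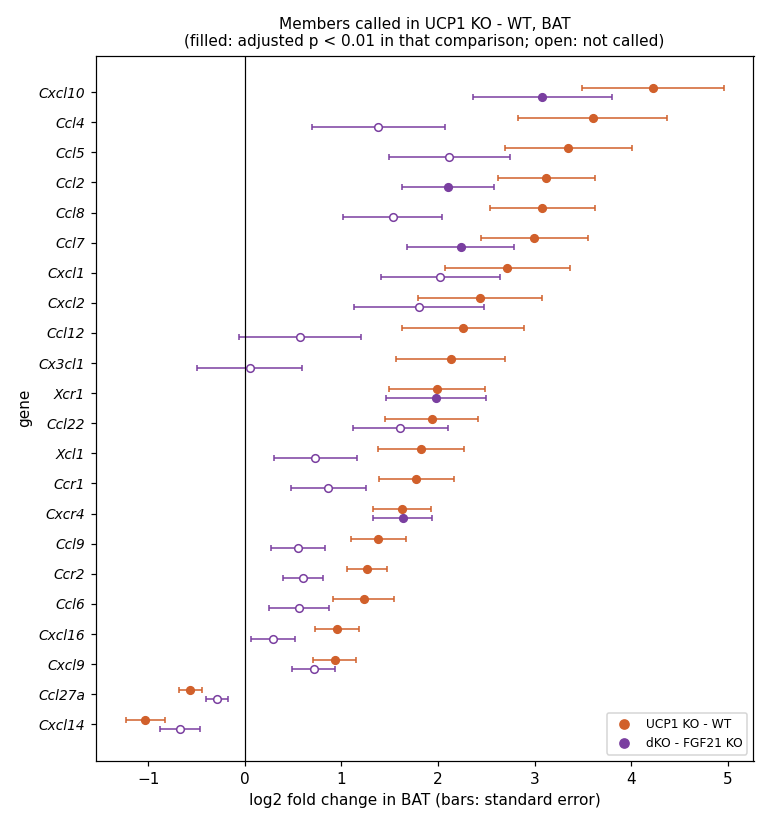
Log2 fold changes in BAT, with standard errors as bars, of 22 of the 23 chemokine genes called in UCP1 KO against WT, shown for that comparison and for dKO against FGF21 KO; filled points were called in the comparison and open points were not. All 22 have the same sign in both, and 5 are filled in the second.

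All 23 genes, which were selected by their call in UCP1 KO against WT, had the same sign in both comparisons, as did 99.3% of the 3964 genes of any kind called there. Of the 23, 16 had an unadjusted p under 0.05 in dKO against FGF21 KO, while 83.2% of the 3964 did. The test of the difference between the comparisons, the interaction of the 2 losses, called 0 chemokine genes by edgeR or DESeq2 and 0% of all genes by edgeR, with 4 chemokine genes at an unadjusted p under 0.05 (5.37% of all genes). For Cx3cl1 the values were 2.13 and 0.05, for Ccl12 2.26 and 0.57, and for Cxcr4 1.63 and 1.63. UCP1 KO and dKO were then set directly against each other, and 0 chemokine genes were called by edgeR or DESeq2 (0.0636% of all genes by edgeR), with 8 at an unadjusted p under 0.05 (12.9% of all genes). Loss of FGF21 alone, FGF21 KO against WT, gave 0 calls among chemokine genes by either tool and 0% among all genes by edgeR, with 1 chemokine gene at an unadjusted p under 0.05 (8.55% of all genes). The dKO set against WT, which shares its controls with the first comparison, gave 8 higher (11.1% of all genes) and 2 lower (10%), the count falling to between 3 and 6 without WT replicate 2, 3, 4 or 5 or dKO replicate 2. The test over all 4 genotypes called 21 chemokine genes (29.7% of all genes).

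The difference between UCP1 KO and WT in BAT was set against that in each other tissue in a joint fit of all 80 libraries with 52 chemokine genes, a test added after seeing the data. The study's methods give 5 mice per genotype for the 4 tissues, so libraries of different tissues may share animals. The labels do not link them. This fit and that of WT levels between tissues treat them as independent. Against iWAT, 7 chemokine genes differed at an adjusted p under 0.01, as 10.5% of all genes did. The BAT difference was the larger in 6, which were Cxcl10 by 3.14 (SE 0.79, adjusted p = 0.00274) on the log2 scale, Ccl4 by 2.97 (SE 0.83, adjusted p = 0.00722), Ccl8 by 2.58 (SE 0.66, adjusted p = 0.00334), Cx3cl1 by 2.12 (SE 0.48, adjusted p = 0.000787), Cxcr4 by 2.08 (SE 0.57, adjusted p = 0.00593) and Ccr2 by 1.55 (SE 0.35, adjusted p = 0.00079). Ccl27a was the 1 gene with the smaller difference in BAT, at -0.91 (SE 0.24, adjusted p = 0.00343). Against liver the difference was larger in BAT in 3 genes (5.38% of all genes differed), among them Cxcl10 by 4.21 (SE 0.81, adjusted p = 0.000174) and Ccl4 by 3.41 (SE 0.92, adjusted p = 0.00873). Against muscle it was larger in 3 (4.31% of all genes differed), Cxcl10 by 4.15 (SE 0.88, adjusted p = 0.000787), Cx3cl1 by 1.87 (SE 0.49, adjusted p = 0.00717) and Ccr2 by 1.35 (SE 0.36, adjusted p = 0.00789). Cxcl10, the T cell attractant, was the gene that differed against all 3 tissues.

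Each of the WT and UCP1 KO libraries of the tissues compared was then left out in turn. The differences of Cxcl10 against liver and muscle and of Ccr2 against iWAT passed in all 20 fits each. Cxcl10 against iWAT did not pass without WT iWAT replicate 5 or BAT UCP1 KO replicate 2, its lowest value being 2.71. The values of Cx3cl1 rested on BAT UCP1 KO replicate 5, without which they were 0.77 against iWAT and 0.53 against muscle (adjusted p = 0.0996 and 0.386). Against iWAT, Ccl8 did not pass without WT iWAT replicate 5, and Ccl27a without WT iWAT replicate 5, UCP1 KO iWAT replicate 4 or BAT WT replicate 1. Ccl4 passed in 9 of 20 fits against iWAT and 5 of 20 against liver, Cxcr4 in 10 of 20 against iWAT, Cx3cl1 in 10 of 20 and Ccr2 in 6 of 20 against muscle. The count against iWAT was 2 without WT iWAT replicate 5 (8.69% of all genes) and 18 without UCP1 KO iWAT replicate 2 (15.8%). The first is 1 of the 2 WT libraries, and the second the 1 UCP1 KO library, that were high in lymph node genes (described with iWAT). The first was also the WT iWAT library richest in skeletal muscle markers, at 12189 CPM. Without WT iWAT replicate 4, the other such WT library, the difference was larger in BAT in 4 genes and smaller in 1 (9.41% of all genes differed). The parts of lymph node and muscle signal in these counts were not tested. Against liver the count ranged from 1 to 5, and against muscle from 1 to 3. With all libraries in the fit, for genes raised in BAT that are not in these counts, the difference between tissues did not pass the test.

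**Figure D3:**
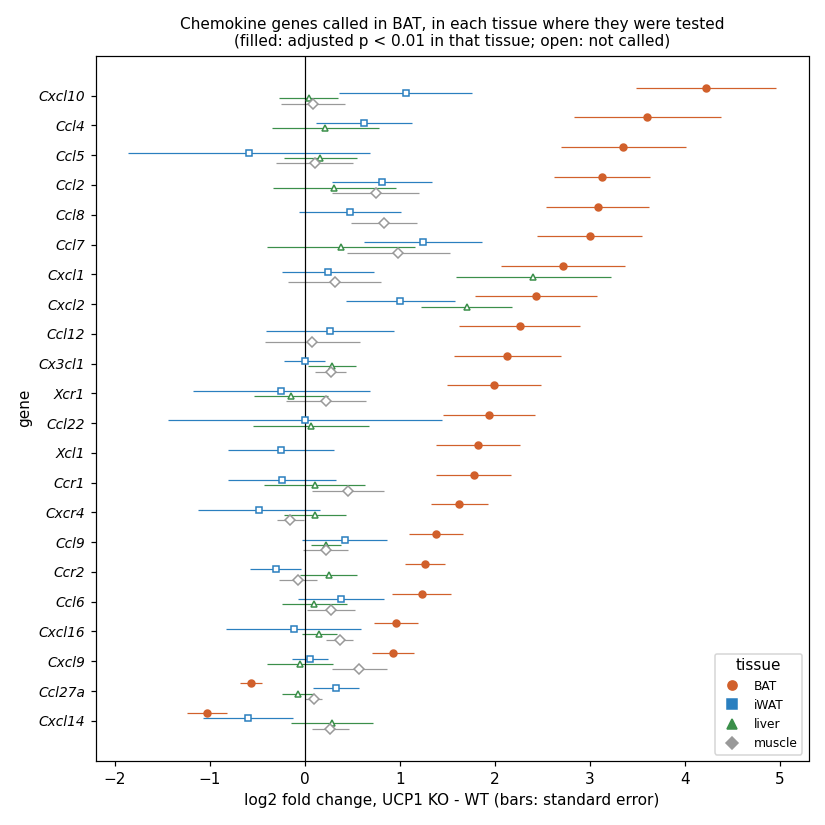
UCP1 KO set against WT in BAT, iWAT, liver and muscle, as log2 fold changes with standard errors as bars, for the same 22 chemokine genes; genes below the count filter in a tissue have no point there. Filled points, which were called, appear in BAT alone.

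In iWAT the question was how far chemokine genes follow lymph node tissue, since the inguinal fat pad encloses a lymph node. Cd79a, part of the B cell receptor, and Cd3e, part of the T cell receptor, gave a score for each library, the mean of log2(CPM + 0.1) of both genes. The 20 libraries fell into 9 with scores from 6.08 to 6.87 and 11 with scores from -0.54 to 1.36. The high libraries were 2 of 5 WT, 4 of 5 FGF21 KO, 1 of 5 UCP1 KO and 2 of 5 dKO, so the sides were unequal between genotypes. With genotype in the model, 24 of 52 tested chemokine genes rose with the score (30.6% of all genes did) and 4 fell (33%). In 18 genes all 9 high libraries lay above all 11 low ones (19.3% of all genes), and in 0 genes all lay below (9.81%).

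Of the receptors listed under lymphoid homing (Ccr6, Ccr7, Ccr9, Ccr10, Cxcr4 and Cxcr5), 6 of 6 rose with the score. Ccr6, found on B cells, was at 0.0362, 0.146 and 0.458 CPM (lowest, median and highest) in the 11 low libraries and at 21, 34.5 and 51.6 CPM in the 9 high ones. The sides were far apart, with a slope of 1.20 (SE 0.03, adjusted p = 6.26e-16) log2 units per unit of score. Cxcr5, which takes B cells into follicles, was at 0.147, 0.443 and 1.54 CPM in the low libraries and 40.8, 64.1 and 79.3 CPM in the high ones (slope 1.16 (SE 0.02, adjusted p = 2.84e-17)). Ccr7, the T cell and dendritic cell homing receptor, was at 0.895, 1.26 and 2.28 CPM and 55.8, 90.8 and 108 CPM (slope 0.96 (SE 0.03, adjusted p = 5.92e-14)). The median of the high libraries was 236 times that of the low ones for Ccr6, 145 times for Cxcr5 and 72.2 times for Ccr7. A low library held only 1 to 17 counts of Ccr6, 6 to 57 of Cxcr5 and 31 to 70 of Ccr7, so these ratios are rough, that of Ccr6 most. The gut homing receptor Ccr9, the T helper receptors Ccr4 and Ccr8 and the neutrophil receptor Cxcr2 followed with slopes of 0.95, 0.86, 0.85 and 0.82. Ccr9, Ccr4 and Ccr8 had at most 11, 7 and 4 counts in a low library, so they passed the count filter through the high ones. Of the myeloid and effector receptors 7 of 12 rose, but Ccr2 (slope 0.05 (SE 0.03, adjusted p = 0.225)) was not called.

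Both tested lymphoid homing ligands rose as well. Ccl19, made by stromal cells for Ccr7, was at 0.0738, 0.173 and 0.246 CPM in the low libraries and 1.96, 3.9 and 6.96 CPM in the high ones, which did not overlap (slope 0.71 (SE 0.04, adjusted p = 2.56e-11)). Cxcl13, the follicular ligand of Cxcr5, was at 8.03, 18.1 and 59.3 CPM and 45.7, 87.6 and 119.6 CPM, with overlap and a smaller slope of 0.32 (SE 0.06, adjusted p = 7.4e-05). Among other ligands, Ccl22 (slope 0.83 (SE 0.03, adjusted p = 9.09e-15)) and Ccl5 (0.72 (SE 0.02, adjusted p = 2.41e-16)) stood apart between the sides. Ccl5, one of the genes raised in UCP1 KO BAT, had its lowest, median and highest level at 4.5, 4.91 and 7.49 CPM in low and 85.2, 129.8 and 150.1 CPM in high iWAT libraries. Of the 8 inflammatory CC ligands raised in BAT, Ccl5 and Ccl12 (slope 0.30 (SE 0.06, adjusted p = 0.000123)) rose with the score and the other 6 were not called. None of 4 tested neutrophil-attracting ligands was called, but their median slope was 0.26 against -0.0088 over all genes. Cxcl5 (0.51 (SE 0.19, adjusted p = 0.0224)) and Cxcl3 (0.45 (SE 0.15, adjusted p = 0.0127)) missed the threshold, with 0 counts in at least 1 low library. Slopes near 0 were those of Ccl2 (0.08 (SE 0.07, adjusted p = 0.287)), Ccl7 (0.07 (SE 0.08, adjusted p = 0.453)) and Cxcl1 (0.07 (SE 0.06, adjusted p = 0.349)). Cxcl12 was not called either (0.03 (SE 0.02, adjusted p = 0.11)). The 4 genes that fell were Cxcl14 (slope -0.22 (SE 0.03, adjusted p = 1.12e-05)), the eosinophil ligands Ccl24 (-0.21 (SE 0.03, adjusted p = 5.45e-06)) and Ccl11 (-0.12 (SE 0.02, adjusted p = 2.77e-05)) and the scavenger Ackr3 (-0.19 (SE 0.03, adjusted p = 2.32e-05)). All 4 adipocyte markers fell with the score too, as did 3 of 4 endothelial markers. Of 8 macrophage markers 1 rose and 1 fell, and of 4 tested neutrophil markers 2 rose and 0 fell. The 10 skeletal muscle markers, of which 0 were called, had a median slope of 0.54 against -0.0088 over all genes. The part of these markers in the slopes was not tested.

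**Figure D4:**
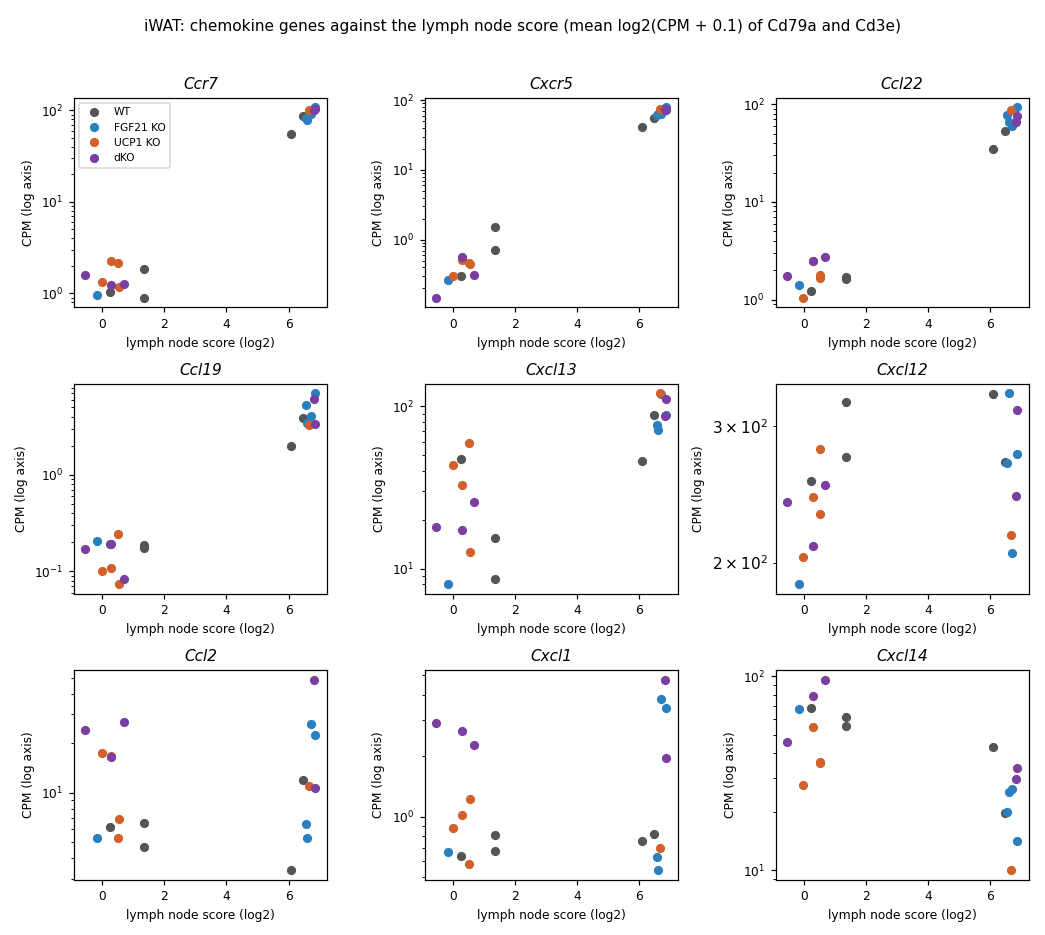
Levels of 9 chemokine genes in the 20 iWAT libraries (CPM, log axis) against the lymph node score of each library, coloured by genotype. Ccr7, Cxcr5, Ccl22 and Ccl19 fall into separate groups at low and high score, Cxcl13 does so with overlap, Cxcl12, Ccl2 and Cxcl1 do not separate, and Cxcl14 tends lower at high score.

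Between genotypes in iWAT, 0 chemokine genes were called by edgeR in any comparison without the score, and by DESeq2 1 was called in UCP1 KO against dKO and 2 over all 4 genotypes. The share of all genes called was 0.61% in UCP1 KO against WT, 0.0115% in dKO against FGF21 KO, 0.466% in UCP1 KO against dKO, 0.00575% in FGF21 KO against WT, 0.0173% in dKO against WT, 0% for the interaction and 1.74% over all 4 genotypes. Chemokine genes with an unadjusted p under 0.05 numbered 1 (14.7%), 3 (8.62%), 4 (14.2%), 6 (17.4%), 6 (5.9%), 4 (9.98%) and 7 (22.5%) in the same order, with the share of all genes tested in parentheses. In dKO against WT 3 genes did not overlap, with dKO above (0.656% of all genes), which were Cxcl1, Cxcl2 and Ccl7. Cxcl1 was at 0.637, 0.808, 0.674, 0.755 and 0.823 CPM in WT and 1.94, 2.66, 4.76, 2.91 and 2.26 CPM in dKO. The groups were apart, but over all genes the log2 fold change of 1.97 (SE 0.49, adjusted p = 0.431) was not called. Ccl2 in dKO was at 10.7, 16.6, 48.9, 24.1 and 27 CPM, and at 6.18, 6.52, 4.69, 3.39 and 11.9 CPM in WT, with 1 dKO library inside the WT range (1.96 (SE 0.54, adjusted p = 0.516)). Ccl25, the gut and thymus ligand of Ccr9, was at 4.43, 2.99, 4.47, 3.67 and 4.57 CPM in UCP1 KO and 2.76, 1.81, 2.89, 2.62 and 2.9 CPM in dKO, where the UCP1 KO libraries were all higher (log2 fold change 0.63 (SE 0.16, adjusted p = 0.0423)).

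Once the lymph node score was in the model, 1 chemokine gene was called in UCP1 KO against WT (4.52% of all genes were), Ccl24, a ligand of the eosinophil receptor Ccr3. Its levels were 25.7, 18.7, 23.7, 10.4 and 7.39 CPM in WT, of which the last 2 libraries had high scores, and 13.2, 3.43, 5.83, 9.77 and 15.8 CPM in UCP1 KO, of which the second had a high score. Within each side the UCP1 KO libraries lay below the WT libraries, and the log2 fold change was -1.13 (SE 0.23, adjusted p = 0.0044), against -0.84 (SE 0.43, adjusted p = 0.398) without the score. The count of 1 became 0 without WT replicate 1, 2 or 3 or UCP1 KO replicate 4, and 2 without WT replicate 5, UCP1 KO replicate 2 or dKO replicate 4. With the score, 0 chemokine genes were called in dKO against FGF21 KO (0.0115% of all genes), UCP1 KO against dKO (4.23%), FGF21 KO against WT (0.00575%), dKO against WT (0.023%), the interaction (0.0173%) and the test over all 4 genotypes (4.51%). At an unadjusted p under 0.05 these held 1 (7.62%), 8 (26.2%), 8 (19.6%), 12 (18.3%), 8 (21.6%) and 11 (34.3%) chemokine genes, with the share of all genes in parentheses. UCP1 KO against WT held 17 (30.2%).

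Levels in WT were compared between tissues over the 20 WT libraries scaled together, where 47 chemokine genes could be tested and a gene counted as highest in a tissue when it passed against each of the others. In iWAT 26 were highest (14.8% of all genes were), in liver 3 (18.6%), in BAT 1 (9.21%) and in muscle 1 (17.7%). Some of the 26 were near 0 elsewhere and passed the count filter through iWAT. Ccr4 and Ccr6, for example, reached 3.46 and 18.2 CPM in iWAT but at most 0.105 and 0.175 CPM in liver, their next tissue. No other tissue could have been called highest for such genes, so their calls were largely set by the filter. On the scale of CPM per kilobase of exon, as mean ± SD of 5 libraries, the highest chemokine genes of BAT were Ackr3 at 32.2 ± 10.1, Ccl11 at 13.7 ± 2, Cxcl12 at 11.9 ± 0.551, Cxcl9 at 8.73 ± 0.65 and Cxcl14 at 8.71 ± 1.77. The ranges of Ccl11 and Cxcl12 overlapped, as did those of Cxcl9 and Cxcl14. In iWAT the order was Ccl6 at 73.5 ± 30.3, Ccl8 at 71.4 ± 42.9, Ccl11 at 32.1 ± 6.31, Ccl5 at 28 ± 34.4 and Ccl9 at 25.3 ± 8.5, and the ranges of all neighbours in this order overlapped. The level of Ccl5 rested on the 2 libraries of high lymph node score, since it was 3.64 ± 0.57 in the other 3, below Ccl9 at 27.6 ± 8.8. Liver was led by Cxcl12 at 40.1 ± 5.76 and Ccl9 at 22.9 ± 1.65, which did not overlap, followed by Ccl6 at 6.73 ± 1.37, Cxcl9 at 6 ± 2.33 and Cxcl16 at 3.18 ± 0.438, whose ranges overlapped from each to the next. Muscle was led by Cxcl14 at 28.2 ± 7.55 and Ccl11 at 24.6 ± 2.3, which overlapped, then Cxcl12 at 14.2 ± 1.15, Ccl6 at 10.5 ± 3.1 and Ackr3 at 9.84 ± 1.06, which overlapped from each to the next.

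Cxcl12, the ligand that retains leukocytes and progenitors through Cxcr4, was at 288 to 388 CPM in liver, above iWAT at 158 to 197 CPM by 0.89 (SE 0.10, adjusted p = 5.34e-08) on the log2 scale, and at 89.5 to 100.2 CPM in BAT and 105 to 127 CPM in muscle. Liver was also highest in Cxcl1, at 1.73 to 6.58 CPM against 0.394 to 0.503 CPM in iWAT, and in Cxcl11, at 2.99 to 5.82 CPM against 0.0884 to 1.19 CPM in muscle. The annotation lists Cxcl11 as a polymorphic pseudogene. Ccl27a, one of the 2 genes that fell in UCP1 KO BAT, was highest in BAT, at 9.09 to 13.1 CPM against 4.24 to 6.79 CPM in liver (log2 difference 0.97 (SE 0.15, adjusted p = 7.36e-06)). Cxcl14 was called highest in muscle at 37.6 to 69 CPM, but 12 to 42.2 CPM in iWAT overlapped it. Its log2 difference of 0.77 (SE 0.25, adjusted p = 0.0079) did not pass with FGF21 KO libraries in place of WT or without the 2 WT iWAT libraries of high lymph node score. Among the 26 genes of iWAT, the monocyte receptor Ccr2 was at 34.8 to 58.6 CPM against 7.04 to 10.1 CPM in muscle, the next tissue (log2 difference 2.44 (SE 0.20, adjusted p = 8.96e-10)), Ccl8 at 11.6 to 66.7 CPM against 0.698 to 1.94 CPM (4.85 (SE 0.45, adjusted p = 6.19e-09)), and Ccl6 at 78.8 to 217 CPM against 13 to 24.5 CPM (2.81 (SE 0.27, adjusted p = 1.13e-08)). The atypical receptors Ackr1, which carries chemokines across venules, and Ackr2, a scavenger of inflammatory CC ligands, were highest in iWAT too, by 2.04 (SE 0.19, adjusted p = 1.06e-08) and 1.91 (SE 0.28, adjusted p = 4.24e-06).

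The iWAT count was lower without the 2 WT iWAT libraries of high lymph node score. These were also the 2 highest of WT in skeletal muscle markers, and leaving them out kept 3 libraries. Lymph node signal, muscle signal and the number of libraries therefore cannot be told apart here. In that setting 40 chemokine genes could be tested, against 47 with all libraries, and 18 were highest in iWAT (14.9% of all genes were). Of the 18, 17 were among the 26. The 9 genes lost were Ccl19, Ccr4, Ccr6, Ccr7, Ccr9, Cxcr2, Cxcr5, Cxcr6 and Xcr1, and Ccl11 was gained. A lost gene may have fallen below the count filter rather than failed the test. There 2 genes were highest in BAT (9.97% of all genes), 5 in liver (20.8%) and 0 in muscle (19.2%). Without WT iWAT replicate 5 alone, the library of WT richest in muscle markers, 24 genes were highest in iWAT. On the scale of the iWAT libraries alone, which gives higher values than the scaling over all WT libraries used above, Ccr7 in WT was at 1.02, 0.895, 1.86, 55.8 and 87.1 CPM, where the last 2 libraries were those of high score, while Ccl8 was at 79.9, 18.9, 36.4, 54 and 109 CPM and Ccr2 at 94.6, 57.4, 62, 58.2 and 93.7 CPM.

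**Figure D5:**
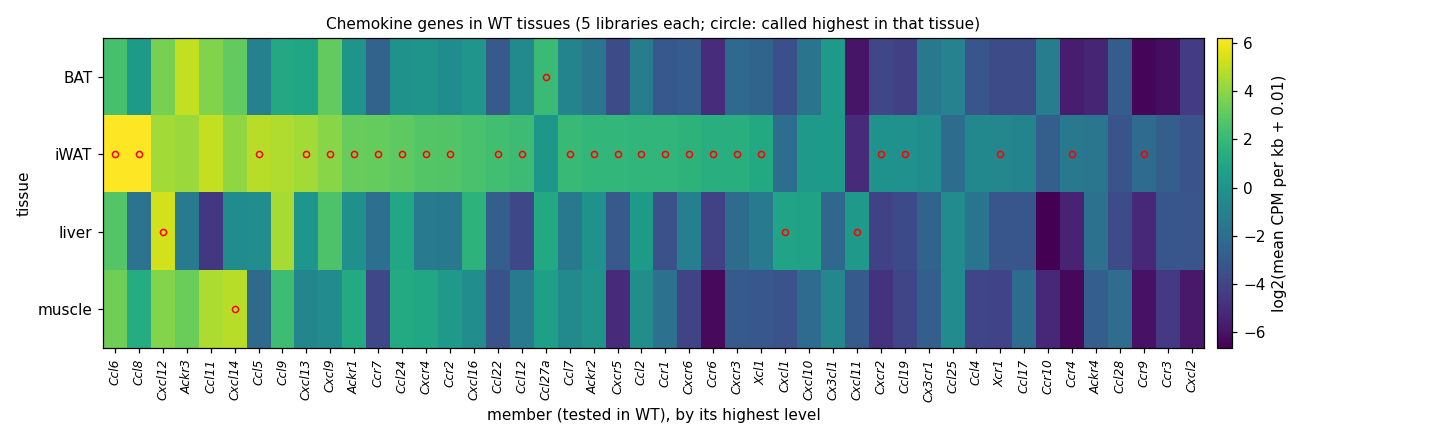
Mean level in WT of 46 of the 47 chemokine genes tested between tissues, as log2(CPM per kilobase + 0.01), for BAT, iWAT, liver and muscle; circles mark the tissue in which a gene was called highest. Circles number 26 in iWAT, 3 in liver, 1 in BAT and 1 in muscle.

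In liver 36 chemokine genes were tested between genotypes and edgeR called 0 in every comparison. Of all genes tested there, the share called was 0.0694% in UCP1 KO against WT, 0.00694% in dKO against FGF21 KO and in UCP1 KO against dKO, 0.229% in FGF21 KO against WT, 0.0416% in dKO against WT, 0% for the interaction and 0.34% over all 4 genotypes. At an unadjusted p under 0.05 stood 3 (10.2%), 6 (6.75%), 2 (8.25%), 2 (7.54%), 6 (12.1%), 3 (5.16%) and 6 (11.6%) chemokine genes in that order, with the share of all genes in parentheses, and DESeq2 called 1 in dKO against WT and 1 over all 4 genotypes. Cxcl1, the neutrophil attractant, varied widely. It was at 2.55, 1.52, 1.34, 2.31 and 5.1 CPM in WT, 3.66, 2.02, 17.1, 4.85 and 8.56 CPM in FGF21 KO, 6.57, 24.7, 7.47, 18.7 and 10.3 CPM in UCP1 KO and 28.4, 1.39, 8.49, 125 and 30.5 CPM in dKO. UCP1 KO libraries lay above WT without overlap, which was 1 chemokine gene where 1.39% of all genes did the same, while a dKO library was as low as WT. Against WT the log2 fold change was 3.92 (SE 0.85, adjusted p = 0.0468) in dKO, and in UCP1 KO the adjusted p was 0.259.

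In muscle 31 chemokine genes were tested and edgeR again called 0. The share of all genes called was 0.0265% in UCP1 KO against WT, 0.0595% in dKO against FGF21 KO, 0% in UCP1 KO against dKO, 0.00662% in FGF21 KO against WT, 0.0529% in dKO against WT, 0% for the interaction and 0.086% over all 4 genotypes. Chemokine genes at an unadjusted p under 0.05 numbered 3 (9.8%), 3 (7.96%), 6 (11.7%), 6 (12.9%), 5 (12.2%), 1 (7.48%) and 8 (16.3%) in that order, with the share of all genes in parentheses, and DESeq2 called 0. Ccl2 was at 0.785, 1.21, 0.266, 0.63 and 0.89 CPM in WT, 0.6, 0.699, 1.54, 1.13 and 1.39 CPM in FGF21 KO and 1.94, 2.06, 1.72, 1.55 and 3.12 CPM in dKO. Ccl7 was at 0.105, 0.533, 0.373, 0.533 and 0.721 CPM, 0.248, 0.2, 1.21, 0.765 and 0.578 CPM and 1.33, 1.33, 1.35, 1.48 and 1.71 CPM in the same groups. Both monocyte ligands were thus higher in every dKO library than in every WT library (2 genes, where 1.48% of all genes did so) and than in every FGF21 KO library (2 genes, 0.675%). Their log2 fold changes in dKO against WT, 1.45 (SE 0.45, adjusted p = 0.162) for Ccl2 and 1.65 (SE 0.53, adjusted p = 0.184) for Ccl7, did not pass the test over all genes.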

How the data were processed

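The authors deposited raw read counts per gene, 1 library per file, from poly(A)-selected, stranded, paired-end libraries; per the labels and the study's methods, reads were aligned with STAR to mm10 and counted with HTSeq against UCSC known genes, and whether counting used strand is not given in the sources used here. Each file held 32764 genes and 1 row without a gene name, of at most 15 counts in a library, which was left out. No 2 of the 760 library pairs compared within tissues were identical. The members and all lists were chosen with earlier results of these data known. Groups were taken from the labels, 5 libraries each; the labels give no replicate numbers, and those used here only name libraries in the order listed.

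Genes were kept in a tissue with a highest count above 15, a sum above 75 and at most 10 of 20 libraries at 0. Per tissue, edgeR 4.0.16 (R 4.3.3, limma 3.58.1) fitted a mean for each genotype in its quasi-likelihood test with TMM factors. Benjamini-Hochberg adjustment covered all genes tested and genes were called at an adjusted p under 0.01. The standard error (SE) is the log2 fold change divided by the square root of F. CPM values use library sizes scaled by the TMM factors of the fit, which was made per tissue, or over the 20 WT libraries for levels between tissues. Cell type scores are means of log2(CPM + 0.1). Named were genes called in any test, the 5 with the highest level per kilobase in each tissue, up to 5 called highest in a tissue, receptors or ligands of called genes, and in iWAT the genes with the largest slopes. Genes added outside this rule were chosen after their values were seen, among them the signalling genes and markers given with values. A few genes are counted in totals but not reported by name or drawn.

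Alternatives were other scaling factors, no filter, an adjusted p under 0.05, only the 2 genotypes compared, DESeq2 1.42.0, cell scores as covariates, subsets of libraries, and each library left out. Scripts were tested on simulated data. Library totals of 28691377 to 50380696 counts leave genes of a few counts imprecise. Counts are given for some of these genes, and other low values are given in CPM alone.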

Additional observations from a re-analysis of the deposited data

Results flagged for a closer look

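Within groups of 5 libraries, Dixon's criterion was used to find a library set apart from the other 4. For normally distributed values, chance alone sets apart about 1 in 20 groups. That rate need not hold for the untransformed CPM values used here, some of them from few counts. Of 132 chemokine gene groups looked at, 12 held such a library. In BAT these were Cx3cl1 at 76.7 CPM in a UCP1 KO library (the others at 5.22 to 16.9), Ccl22 at 2.66 CPM in a UCP1 KO library (0.322 to 0.837), Cxcl10 at 16.5 CPM in a dKO library (1.34 to 2.86), Xcr1 at 1.88 CPM in a dKO library (0.592 to 0.692), Ccl4 at 1.18 CPM in a dKO library (0.257 to 0.313) and at 0.213 CPM in a WT library (0 to 0.0579), and Ccl27a at 13.8 CPM in a WT library (9.58 to 10.5). The Cx3cl1 and Ccl22 values came from the same library, UCP1 KO replicate 5, and the Cxcl10, Xcr1 and Ccl4 values of dKO from dKO replicate 2. In iWAT, Ccl25 was at 1.81 CPM in a dKO library, below the others at 2.62 to 2.90. In liver, Cxcl1 was at 125 CPM in a dKO library (1.39 to 30.5), and Cxcl2 at 1.00 CPM in a UCP1 KO library (0.290 to 0.468) and at 0.307 CPM in a WT library (0.0893 to 0.147). In muscle, Ccl7 was at 2.50 CPM in a UCP1 KO library (0.223 to 0.712).

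The difference between UCP1 KO and WT was unequal between tissues by a test of the difference itself. Of 52 chemokine genes tested, it was larger in BAT than in iWAT in 6 and smaller in 1 (10.5% of all genes differed), larger in BAT than in liver in 3 (5.38%), and larger in BAT than in muscle in 3 (4.31%), shares near those of all genes.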

How the results depend on the processing

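No paired analysis was possible because the labels give the groups no shared replicate numbers and do not link the libraries of a mouse. Over the alternatives run, 1039 counts stayed within 1.5 times their main value and 80 did not; of the log2 fold changes of genes called in BAT, 675 kept direction and side of the threshold, 108 kept direction alone and 1 turned. The turned value was Ccl12 in UCP1 KO against WT in BAT, -0.00094 with the macrophage score in the model against 2.26 without it. With that score the calls in BAT were 2 for UCP1 KO against WT, 6 for dKO against WT and 4 over all genotypes, against 23, 10 and 21. In BAT, dKO against FGF21 KO gave 5 calls, but 13 at an adjusted p under 0.05, 11 by DESeq2 and 9 without the libraries high in skeletal muscle markers; dKO against WT gave 20 at an adjusted p under 0.05. In iWAT, UCP1 KO against dKO gave 1 call and all genotypes 2, both at an adjusted p under 0.05 and by DESeq2; libraries of low lymph node score alone gave 1 over all genotypes, and the score as covariate gave 1 for UCP1 KO against WT. In liver, dKO against WT gave 1 call at an adjusted p under 0.05 and by DESeq2, and all genotypes 1 by DESeq2. Between tissues, muscle was highest in 0 genes without a filter, without the WT iWAT libraries of high score or with FGF21 KO in place of WT; BAT was highest in 2 in the latter settings, and liver in 5 without those libraries. For the counts at an adjusted p under 0.05, by DESeq2 or in low-score libraries alone, the share of all genes called was not computed. Whether chemokine genes moved there with all genes is therefore not known. The cause of the changes in count was not tested.

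With 1 library left out, the calls in BAT ranged from 17 to 25 for UCP1 KO against WT, 16 to 24 over all genotypes, 1 to 6 for dKO against FGF21 KO and 3 to 11 for dKO against WT. In iWAT they ranged from 0 to 1 for UCP1 KO against dKO and over all genotypes, and with the score from 0 to 2 for UCP1 KO against WT, 0 to 1 for UCP1 KO against dKO and 0 to 2 over all genotypes; the slopes gave 23 to 27 higher and 4 to 6 lower. In liver the range over all genotypes was 0 to 1. Genes highest in BAT numbered 1 to 2, in iWAT 24 to 27, in liver 3 and in muscle 0 to 1. Differences between BAT and another tissue in UCP1 KO against WT numbered 2 to 18 for iWAT, 1 to 5 for liver and 1 to 3 for muscle. All other comparisons stayed at 0. Apart from the differences between BAT and another tissue, the share of all genes called was not computed with 1 library left out. These ranges therefore do not show whether chemokine genes moved with all genes. Low counts limit Ccl4, Cxcl1, Cxcl2 and Xcl1 in WT BAT.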
